A study of Homo sapiens with 9 samples.

Results

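Ribosomal proteins of the cytosol were followed gene by gene in A549, an established line of human lung adenocarcinoma cells. With earlier results of these data known, the genes were chosen by name from the deposited gene counts. They are the protein-coding rows called RPSA, RPLP0, RPLP1, RPLP2, or RPL or RPS with a digit. RPS6K kinases, names holding BP or a hyphen and genes of chromosome Y were left out. This gave 85 of the 58735 gene rows: 31 genes of the small subunit, 46 of the large subunit and 8 paralogs. Paralogs are here genes related to one of the others (RPL22L1, RPL26L1, RPL36AL, RPL39L, RPS27L, RPL7L1, RPL3L and RPL10L). Most of them encode a variant of a ribosomal protein, while RPL7L1 takes part in ribosome assembly.

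All cells were A549 transfected with jetPRIME and a plasmid, and each group has 3 libraries of poly(A) RNA. The PC3 group received the control plasmid, which the treatment labels of its libraries call PC3.1, PC3.2 and PC3.3, and the L996 and RP11 groups overexpressed the long noncoding RNAs LINC00996 and AP001189.3. The promoter of the plasmids is not given in the sources used here. The study gives repeated RNA extractions for the control and LINC00996 groups and speaks of biological replicates in general terms, but the labels do not say whether the libraries of a group came from separate cultures. The p-values measure the spread between these samples, which may be partly or wholly technical.

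The ribosome joins amino acids in the order that an mRNA sets. Its small subunit reads the mRNA, and its large subunit forms the peptide bond. Each subunit holds ribosomal RNA and a fixed set of proteins that are made in the cytosol, carried into the nucleolus and built in one by one. Most ribosomal protein mRNAs start with a C followed by a run of pyrimidines, the terminal oligopyrimidine or TOP motif, through which cells switch their translation on and off as a group. Several subunits have a paralog that can take the same place in the ribosome.

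Counts per library summed to 15272450 to 18125447. LINC00996 had 4373 to 5952 counts in the L996 libraries and at most 9 elsewhere, and AP001189.3 had 1660 to 2378 counts in the RP11 libraries and at most 2 elsewhere. All 9 markers of A549 and epithelial cells were detected, with a summed level per library of 11523 to 11626 CPM (counts scaled to library size with TMM factors) in PC3, 15761 to 17552 CPM in L996 and 12741 to 13316 CPM in RP11, without overlap. Among these markers, ALDH1A1 and AKR1B10 were called higher in L996 than in PC3, with log2 fold changes of 0.99 and 0.93, and CDH1 and KRT19 lower, at -0.89 and -0.40, beside 10.7% and 11.6% of all genes. The part of both marker lists in the results for L996 was not tested. The 8 markers of blood, endothelial and stromal cells together reached 5.65 to 7.80 CPM in L996, 7.28 to 8.22 CPM in RP11 and 10.3 to 13.0 CPM in PC3. L996 replicate 1 stood apart from the other 2 L996 libraries, with a chi-square per gene of 22.4 and 33.3 against 3.32 between those 2. Across genes, the Spearman correlation of its level, relative to the mean of all libraries, with GC content was 0.43, while it was -0.24 and -0.42 in the other L996 libraries, -0.28 to -0.0036 in PC3 and 0.20 to 0.35 in RP11. The part of this library in the results was not tested beyond leaving it out, and the main counts for L996 are given with and without it. The share of counts from mitochondrial genes was 6.68% to 7.18% in L996, 5.26% to 5.66% in PC3 and 5.32% to 5.52% in RP11, without overlap between L996 and the others, and its part in the results for L996 was not tested beyond leaving those genes out.

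The first bases of the transcripts show what most of these genes share beyond their names. RefSeq (GRCh38.p14) gave the sequence around the start of 68 of the 85 genes. A C at an annotated start followed by pyrimidines, in a run of at least 5, was present in 47 of these 68 genes (69.1%) and in 1404 of the 27305 genes with a sequence in RefSeq's table (5.14%). Only the transcribed strand was read, and a gene with several annotated starts counted once if any of them held the run. The run was found in 46 of 62 genes that are not paralogs (74.2%) but in 1 of 6 paralogs (16.7%), RPL22L1. The 10 sequences below were chosen to set 4 subunits beside their paralogs and to show RPS23 and RPS15, the genes that fell furthest with RP11. Each holds 30 bases before an annotated start and 20 from it, and capitals mark the pyrimidine run that begins at the start.
RPL22 (chr1:6199576-6199625, minus strand): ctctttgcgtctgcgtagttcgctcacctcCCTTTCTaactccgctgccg
RPL22L1 (chr3:170870176-170870225, minus strand): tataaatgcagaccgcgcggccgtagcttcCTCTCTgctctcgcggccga
RPL26 (chr17:8383174-8383223, minus strand): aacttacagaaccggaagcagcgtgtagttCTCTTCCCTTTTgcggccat
RPL26L1 (chr5:172958699-172958748, plus strand): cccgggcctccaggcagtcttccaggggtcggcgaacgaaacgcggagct
RPL36A (chrX:101390981-101391030, plus strand): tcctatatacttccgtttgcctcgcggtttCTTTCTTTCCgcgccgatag
RPL36AL (chr14:49620607-49620656, minus strand): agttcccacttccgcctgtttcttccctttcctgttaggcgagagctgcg
RPS27 (chr1:153990732-153990781, plus strand): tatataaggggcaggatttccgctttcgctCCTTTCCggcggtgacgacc
RPS27L (chr15:63157458-63157507, minus strand): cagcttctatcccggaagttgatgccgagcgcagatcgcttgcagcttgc
RPS23 (chr5:82278335-82278384, minus strand): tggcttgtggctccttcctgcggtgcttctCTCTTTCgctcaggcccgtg
RPS15 (chr19:1438366-1438415, plus strand): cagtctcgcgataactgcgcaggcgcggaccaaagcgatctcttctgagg

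RPL22 and RPL22L1 both carried the run, whereas RPL26, RPL36A and RPS27 carried it and their paralogs did not. RPL26L1 has 2 annotated starts, and neither of them held it. RPS23 had a run of 7 pyrimidines, and RPS15 had none at its annotated start. A match is a description of these letters, and a start annotated a few bases away would be missed.

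Ribosomal protein mRNA was abundant in every library, but single genes differed widely. The 85 genes took 2.83% to 2.97% of all counts in PC3 and 2.85% to 2.96% in RP11. They took 4.47%, 3.65% and 3.39% in L996 replicates 1 to 3, so that every L996 library lay above all others. Per length of exon, the median of the genes that are not paralogs was 95.2 CPM per kb in PC3, 126 in L996 and 104 in RP11. The length used is that of all annotated exon bases of a gene, such as 1501 for RPL10A and 8626 for RPL14. Levels per kb and their ranks therefore also depend on how many exon bases are annotated, and a transcript can be shorter.

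RPL13A, of the large subunit, had the highest length-scaled level in all 3 groups, with 646 ± 45.3 CPM per kb (SD, n = 3) in PC3. RPS16, RPS12, RPS19 and RPL19 followed it in PC3, with 481 ± 23.3, 441 ± 4.79, 403 ± 26.9 and 367 ± 33.4 CPM per kb. Neighbours among these 4 differed by less than 2 SD of the more variable gene, whereas RPL13A lay further above RPS16. RPL41, which encodes a very short peptide of the large subunit, was at rank 10 in PC3, 2 in L996 and 4 in RP11. RPS15 moved the other way, from rank 15 in PC3 to 39 in L996 and 33 in RP11.

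**Figure D1:**
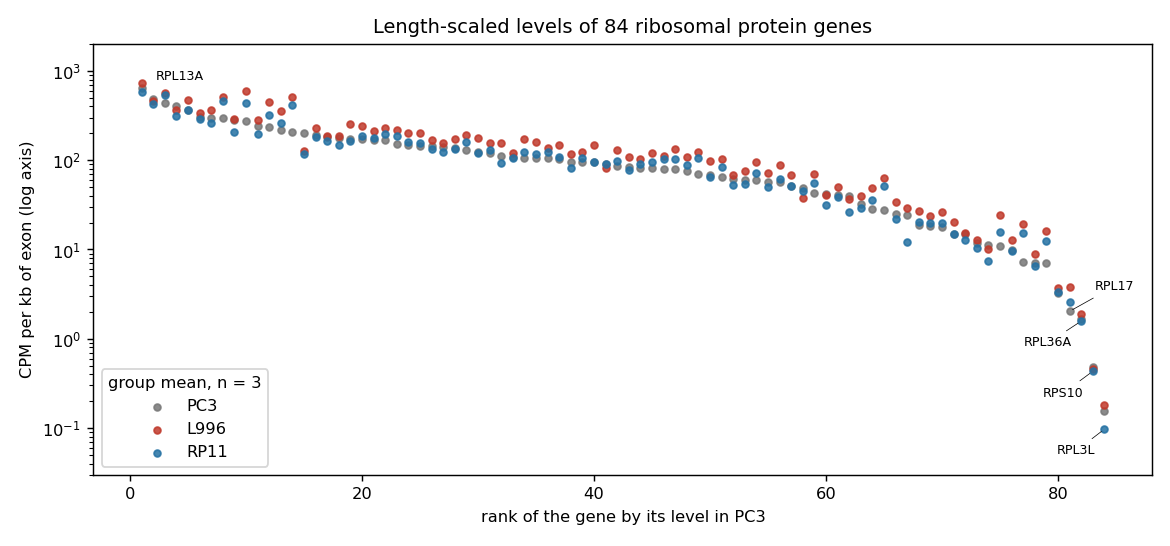
Mean CPM per kb of exon of 84 ribosomal protein genes (vertical axis, log scale) in PC3, L996 and RP11, ordered by the level in PC3 (horizontal axis); each point is the mean of 3 libraries, without error bars. In PC3 the levels run from 646 CPM per kb for RPL13A to 0.157 for RPL3L, and RPL10L, with 0 counts in every library, is not drawn.

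At the other end lay RPL10L and RPL3L, known from other tissues, and RPS10, RPL36A and RPL17. RPL10L, a retrogene known for its expression in testis, had 0 counts in all 9 libraries, which allows 3 counts in each of them. RPL3L, known from skeletal muscle and heart, had 2 to 15 counts per library and was not tested. RPS10, RPL36A and RPL17 had 0.478, 1.66 and 2.03 CPM per kb in PC3. Of the exon bases of these 3 genes, 39.4%, 8.40% and 32.7% also belong to another gene on the same strand, such as the readthrough genes RPS10-NUDT3 and RPL17-C18orf32. These readthrough genes themselves had at most 0.0589 and 0.191 CPM in any library. How reads on shared bases were assigned is not given in the sources used here, and the levels of these 3 genes are uncertain. The same limit holds for RPL13A at the top, with 17.3% of its exon bases shared on the same strand. For RPS10, counts also lay largely on its pseudogene copies, as given below.

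Relative to all counted RNA, ribosomal protein mRNA was higher with the LINC00996 plasmid than with the control plasmid, across both subunits. Of the 83 genes tested, 48 were called higher in L996 than in PC3 and 1, RPS15, was called lower (edgeR's quasi-likelihood test, Benjamini-Hochberg adjusted p under 0.05 over all genes). Among all 16097 genes tested, 10.7% were called higher and 11.6% lower. The median log2 fold change was 0.39 over the ribosomal protein genes and 0.01 over all genes, and 74 of the 83 lay above 0. The calls were 15 higher and 1 lower of 31 small subunit genes, 30 higher of 46 large subunit genes and 3 higher of 6 paralogs tested. The 3 L996 libraries lay above all PC3 libraries in 56 of the 83 genes and below them in 2 (19.8% and 20.7% of all genes). RNA of whole cultures was measured, so a change in the number of cells with the plasmid and a change in the RNA of each cell cannot be told apart. All levels are relative to the counts of a library, so the amount of ribosomal protein mRNA per cell is not known.

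Without L996 replicate 1, 50 genes were called higher and 8 lower (15.9% and 17.3% of all genes), and the median log2 fold change was 0.27. The calls were then 16 higher and 5 lower in the small subunit, 31 and 3 in the large subunit, and 3 and 0 among paralogs. Genes above 0 numbered 66, and the groups did not overlap in 57 genes that were higher and 9 that were lower (27.7% and 27.7% of all genes). Of the 48 genes called higher with all libraries, 45 were still called higher without it. The other 3 were RPL12, RPL36 and RPL41. The 7 further genes called lower were RPL37A, RPL38, RPLP2, RPS16, RPS19, RPS23 and RPS29. Without PC3 replicate 2 the calls were 31 higher and 1 lower, where 4.84% and 6.77% of all genes were called. The call on RPS15 was lost without PC3 replicate 3, without L996 replicate 2 and with the replicate number as a block, with adjusted p-values of 0.079, 0.052 and 0.057.

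**Figure D2:**
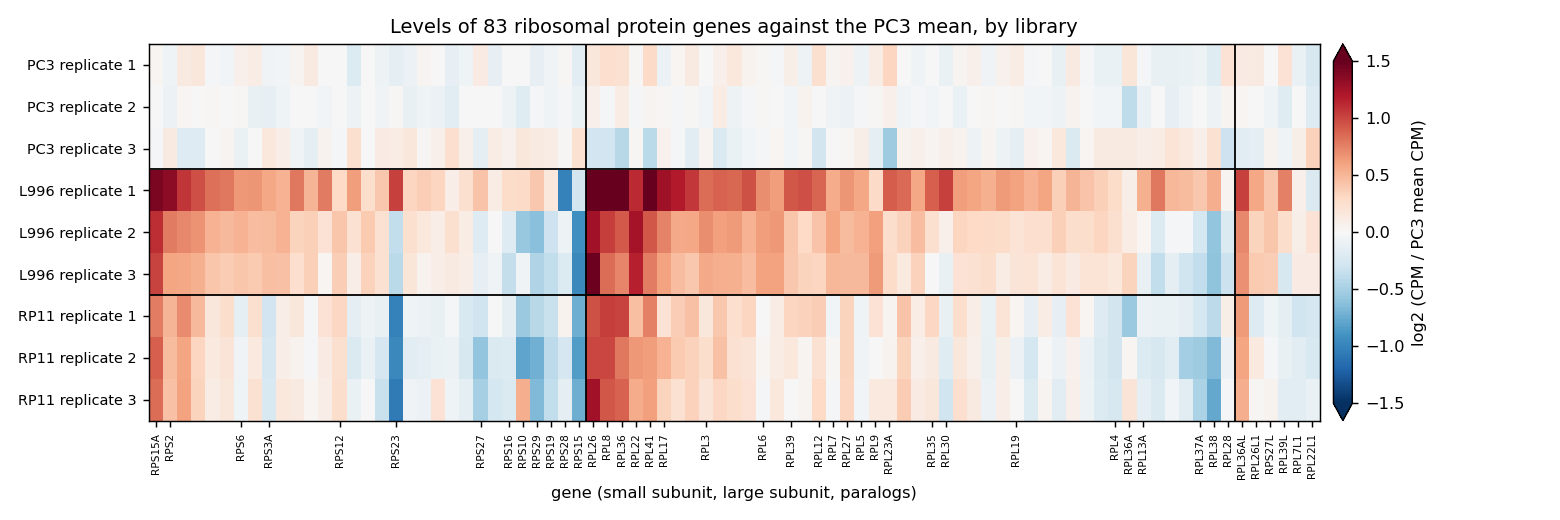
Level of the 83 tested genes in each library as log2 of its CPM over the PC3 mean CPM (colour, red higher and blue lower, ends of the scale at 1.5); columns are genes (those discussed are labelled), by subunit and then by their log2 fold change in L996 against PC3, and rows are libraries. The row of L996 replicate 1 is the reddest, RPS15A, RPL26 and RPL22 are red in all 6 libraries with a noncoding RNA plasmid, and RPS15 is blue in all 6.

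RPL26, a large subunit protein that also binds the mRNA of p53, had the largest log2 fold change. It measured 20.3, 19.1 and 14.9 CPM in PC3 and 52.1, 43.3 and 50.0 CPM in L996. The lowest L996 value was above the highest PC3 value by more than the range within either group. Its log2 fold change was 1.42 ± 0.14 (SE), with an adjusted p of 2.92e-05 by edgeR's quasi-likelihood test.

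RPS15A, of the small subunit, measured 48.1, 46.8 and 45.8 CPM in PC3 and 125, 101 and 94.9 CPM in L996, a log2 fold change of 1.19 ± 0.12 (adjusted p = 3.07e-05, edgeR). RPL22, an RNA-binding protein of the large subunit that is frequently mutated in some tumours, measured 51.1, 49.7 and 51.1 CPM in PC3 and 110, 120 and 114 CPM in L996. Its log2 fold change was 1.18 ± 0.09, with the smallest adjusted p of the set, 6.06e-06 (edgeR). Neither gene's groups overlapped. The calls on RPL26, RPS15A and RPL22 held in each of the 16 other fits of this comparison.

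RPL8, RPL36 and RPL41 also had log2 fold changes above 1, of 1.29 ± 0.25, 1.20 ± 0.27 and 1.14 ± 0.23, and are named after their values were seen. They varied more between libraries than the genes above. RPL41 had 888, 567 and 505 CPM in L996 and 362, 306 and 224 CPM in PC3. Without L996 replicate 1, their log2 fold changes were 0.94, 0.83 and 0.85 and RPL8 alone of the 3 kept its call (edgeR adjusted p = 0.0376, 0.0609 and 0.094). With no filter on low counts, RPL8 and RPL36 lost their calls (adjusted p = 0.0847 and 0.127), and RPL41 did with the GC content offset (adjusted p = 0.0594).

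RPL3 and RPL6, abundant proteins of the large subunit, rose by less. RPL6 had 428, 425 and 412 CPM in PC3 and 682, 650 and 643 CPM in L996, a log2 fold change of 0.64 ± 0.08 (adjusted p = 0.00019, edgeR). RPL3, which lies at the peptidyl transferase centre, had a log2 fold change of 0.70 ± 0.09 (adjusted p = 0.000248, edgeR).

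RPS15, a small subunit protein near the decoding site, was the gene called lower. It had 386, 402 and 508 CPM in PC3 and 357, 229 and 221 CPM in L996, a log2 fold change of -0.69 ± 0.17 (adjusted p = 0.0137, edgeR). All L996 libraries lay below all PC3 libraries, with L996 replicate 1 nearest to them. RPS23 shows where that library decides a value. This protein of the decoding centre had 92.9, 104 and 110 CPM in PC3 and 209, 79.3 and 77.5 CPM in L996, a log2 fold change of 0.25 ± 0.41 (adjusted p = 0.716, edgeR). Without L996 replicate 1 it was -0.38, with an adjusted p of 0.00017 (edgeR).

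The largest log2 fold changes that were not called were 0.51 ± 0.23 for RPL23A, 0.43 ± 0.18 for RPL35 and 0.42 ± 0.26 for RPL30, with adjusted p-values of 0.156, 0.115 and 0.288 (edgeR). In each of these 3 genes L996 replicate 1 was the highest of the 6 libraries. RPL30 had 95.3, 102 and 108 CPM in PC3 and 207, 107 and 94.1 CPM in L996, and without that library its log2 fold change was -0.02. RPL23A was called with the replicate number as a block (adjusted p = 0.00173). RPL35 was called with no filter on low counts, with the GC content offset and without L996 replicate 3 (adjusted p = 0.00128, 0.016 and 0.00939).

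**Figure D3:**
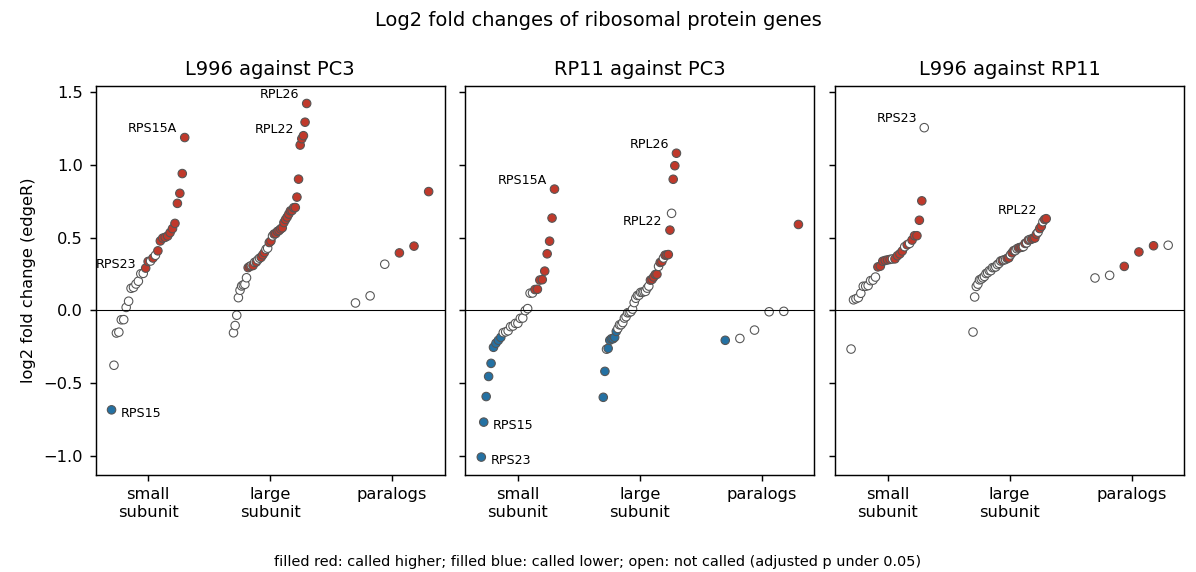
Log2 fold change of each tested ribosomal protein gene (vertical axis) in the 3 comparisons, by subunit (horizontal axis, genes in rising order); filled red points were called higher, filled blue points lower and open points neither by edgeR's quasi-likelihood test. Most points lie above 0 in L996 against PC3 and in L996 against RP11, whereas in RP11 against PC3 they lie on both sides of 0.

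Cells with the AP001189.3 plasmid differed from control cells in both directions. Of the 83 genes tested, 24 were called higher in RP11 than in PC3 and 18 lower, where 11.4% and 8.49% of all 16023 genes tested were called (edgeR's quasi-likelihood test). The median log2 fold change was -0.0032 over the ribosomal protein genes and -0.0013 over all genes, while single genes ranged from -1.01 to 1.08. The calls were 9 higher and 9 lower of 31 small subunit genes, 14 and 8 of 46 large subunit genes and 1 and 1 of 6 paralogs. The groups did not overlap in 29 genes that were higher and 19 that were lower (18.5% and 16.7% of all genes).

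These calls differed with the libraries that entered the fit. With all 9 libraries in 1 fit, 7 genes were called higher and 1 lower (2.08% and 0.562% of all genes), and RPL22, RPL26, RPS15A, RPL36AL and RPS15 were among them. With L996 replicate 1 left out of that fit, the calls were 23 higher and 18 lower (11.0% and 8.43% of all genes). Without RP11 replicate 2, 21 were called higher and 10 lower (7.51% and 4.13% of all genes).

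RPS15A rose from 46.9 ± 1.11 CPM in PC3 to 83.6 ± 3.68 CPM in RP11 (SD, n = 3), with single RP11 values of 79.7, 87.0 and 84.1 CPM. Its log2 fold change was 0.83 ± 0.06 (adjusted p = 5.18e-10, edgeR). RPL26 measured 35.0, 36.3 and 43.2 CPM in RP11, a log2 fold change of 1.08 ± 0.11 (adjusted p = 2.6e-07, edgeR). RPL22 measured 69.2, 79.1 and 74.2 CPM, a log2 fold change of 0.55 ± 0.07 (adjusted p = 1.02e-06, edgeR). In each of these genes the lowest RP11 library was above the highest PC3 library, and the calls held in each of the 17 other fits.

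RPS2, a small subunit protein at the entry of the mRNA channel, and RPL36AL, the paralog of RPL36A, complete the 5 genes with the smallest adjusted p among those higher. Their log2 fold changes were 0.47 ± 0.05 and 0.59 ± 0.07, with adjusted p-values of 5.36e-07 and 8.49e-07 (edgeR). The call on RPS2 was lost in the fit of all 9 libraries (edgeR adjusted p = 0.112), and that on RPL36AL held in each of the 17 other fits. RPL8 and RPL36 had larger log2 fold changes, 0.99 ± 0.15 and 0.90 ± 0.19, but a wider spread, with adjusted p-values of 0.012 and 0.0339 (edgeR). Both calls were lost without RP11 replicate 1 (edgeR adjusted p = 0.064 and 0.11) and in the fit of all 9 libraries (edgeR adjusted p = 0.0739 and 0.121). That on RPL36 was also lost without PC3 replicate 2, RP11 replicate 2 or RP11 replicate 3, with adjusted p-values of 0.066, 0.059 and 0.089.

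RPS23 fell furthest. It had 92.9, 104 and 110 CPM in PC3 and 50.8, 52.6 and 49.2 CPM in RP11, a log2 fold change of -1.01 ± 0.07 with the smallest adjusted p of the set, 2.81e-11 (edgeR). Every RP11 library was far below every PC3 library. The value in the fit of all 9 libraries was the same, but its adjusted p was 0.22.

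RPS15 fell from 432 ± 66.5 to 253 ± 10.4 CPM (SD, n = 3), with RP11 values of 259, 241 and 260 CPM. Its log2 fold change was -0.77 ± 0.10 (adjusted p = 0.00107, edgeR), and its call held in each of the 17 other fits. Among the others called lower, RPS29 and RPS27, both zinc-binding proteins of the small subunit, had log2 fold changes of -0.59 ± 0.08 and -0.46 ± 0.08. RPS19, which is often mutated in Diamond-Blackfan anaemia, had -0.37 ± 0.05, RPL37A had -0.42 ± 0.06 and RPL4 had -0.26 ± 0.05. In the order RPS29, RPS27, RPS19, RPL37A and RPL4, their adjusted p-values were 1.17e-05, 0.000971, 6.31e-06, 1.92e-05 and 0.000764 (edgeR). Each of these calls was lost in the fit of all 9 libraries (edgeR adjusted p = 0.205, 0.094, 0.082, 0.182 and 0.0703 in that order). RPL38, of the large subunit, had -0.60 ± 0.14, and its call (adjusted p = 0.0397, edgeR) was lost without PC3 replicate 2, RP11 replicate 2 or RP11 replicate 3, with adjusted p-values of 0.0637, 0.11 and 0.0503. It was also lost with the replicate number as a block, with the GC content offset and in the fit of all 9 libraries (adjusted p = 0.169, 0.0896 and 0.355). RPL38 is named after its values were seen.

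Genes at larger log2 fold changes that were not called were RPL41, RPL17 and RPL12, with 0.67 ± 0.20, 0.36 ± 0.16 and 0.30 ± 0.14 and adjusted p-values of 0.0997, 0.13 and 0.212 (edgeR). RPL41 had 362, 306 and 224 CPM in PC3 and 500, 459 and 456 CPM in RP11. Its groups did not overlap, and it was called without PC3 replicate 1, without PC3 replicate 3, by DESeq2 and with the replicate number as a block, with adjusted p-values of 0.0301, 1.3e-06, 0.00806 and 0.033. RPL12 was called without PC3 replicate 1, without PC3 replicate 3, in the unfiltered fit and with the block, with adjusted p-values of 6.44e-05, 0.0365, 0.000541 and 0.0146.

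**Figure D4:**
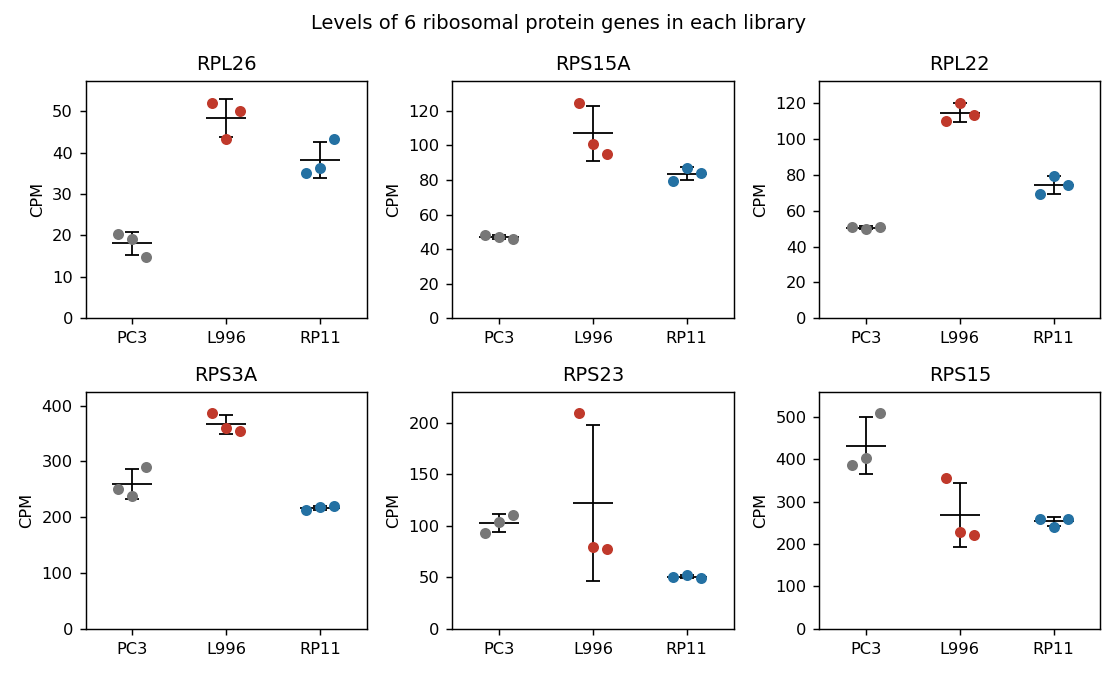
CPM of RPL26, RPS15A, RPL22, RPS3A, RPS23 and RPS15 (vertical axes, from 0) in each library of PC3, L996 and RP11; points are libraries, and black bars show the mean and SD of 3 libraries. RPL22 rises from 50.6 CPM in PC3 to 74.2 in RP11 and 115 in L996, while RPS23 is at 50.8 CPM in RP11 and at 209 CPM in L996 replicate 1.

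The groups with the 2 noncoding RNAs were also compared with each other, without the control libraries. In L996, 37 of the 83 genes were called higher than in RP11 and 0 lower, where 9.38% and 12.1% of all 16095 genes tested were called (edgeR's quasi-likelihood test). Lower genes numbered 0 at an unadjusted p under 0.05 and 0 by DESeq2 as well, which called 12.3% of all genes lower. The median log2 fold change was 0.35 over the ribosomal protein genes and 0.02 over all genes, and 81 of the 83 lay above 0. Small subunit, large subunit and paralogs had medians of 0.35, 0.37 and 0.35. All L996 libraries lay above all RP11 libraries in 51 genes and below them in 0 (19.5% and 19.7% of all genes).

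Without L996 replicate 1, 50 genes were called higher and 2, RPL28 and RPS15, lower (20.3% and 21.3% of all genes), and the median was 0.21, with 0.22, 0.19 and 0.34 in the small subunit, the large subunit and the paralogs. Genes above 0 then numbered 72, and the groups did not overlap in 53 that were higher and 2 that were lower (29.9% and 29.7% of all genes). The 37 genes called higher with all libraries were all among these 50. Without RP11 replicate 1, 2 or 3, the calls higher were 22, 21 and 21, and those lower 0 each time. Of all genes, 3.62%, 4.15% and 3.93% were called higher and 7.55%, 7.66% and 7.73% lower in these fits. Across the 83 genes, the Spearman correlation of the log2 fold change with GC content was -0.37 with all libraries and -0.59 without L996 replicate 1. These genes share libraries, and their values are not independent.

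RPS3A, a small subunit protein, had the smallest adjusted p. It measured 386, 360 and 355 CPM in L996 and 213, 218 and 221 CPM in RP11, with PC3 between them at 250, 237 and 289 CPM. Its log2 fold change in L996 against RP11 was 0.75 ± 0.08 (adjusted p = 5.58e-05, edgeR). Against PC3 it was 0.50 ± 0.10 in L996 and -0.26 ± 0.06 in RP11 (adjusted p = 0.00319 and 0.00313, edgeR), and these share the control libraries. The call in RP11 against PC3 was lost with the GC content offset and in the fit of all 9 libraries (adjusted p = 0.0682 and 0.105). None of the 9 libraries overlapped between groups.

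RPL6, RPL5, RPS6 and RPL7 followed. RPL6 had 424, 430 and 418 CPM in RP11, close to its PC3 values, and a log2 fold change of 0.63 ± 0.07 in L996 against RP11 (adjusted p = 0.000142, edgeR). RPL5, which with RPL11 and the 5S ribosomal RNA can bind MDM2, had 375, 360 and 352 CPM in L996 and 240, 241 and 245 CPM in RP11, a log2 fold change of 0.58 ± 0.08 (adjusted p = 0.000322, edgeR). RPS6, a target of S6 kinase, had 0.62 ± 0.08, and RPL7 had 0.56 ± 0.08 (adjusted p = 0.000376 and 0.000389, edgeR). The calls on these 4 genes held in each of the 16 other fits.

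RPL22 was higher in L996 than in RP11, with a log2 fold change of 0.62 ± 0.09 (adjusted p = 0.000692, edgeR), and its 9 libraries fell into 3 groups without overlap. RPL26 had 0.34 ± 0.12 and RPS15A 0.35 ± 0.11, with adjusted p-values of 0.06 and 0.0413 (edgeR). RPL26 was called in 6 of the 16 other fits, with adjusted p-values of 0.0279 by library size, 0.0477 with no filter, 0.0437 with the replicate number as a block, 0.0395 with the GC content offset, 0.0445 with pseudogene copies and 0.00875 without L996 replicate 1. The call on RPS15A was lost with the GC content offset, without L996 replicate 2 and without RP11 replicate 1, 2 or 3, with adjusted p-values of 0.174, 0.076, 0.17, 0.1 and 0.13. RPS23 had the largest log2 fold change, 1.26 ± 0.40, and was not called (adjusted p = 0.0721, edgeR). Without L996 replicate 1 it was 0.63 and was called, with an adjusted p of 3.8e-09 (edgeR), and it was also called without L996 replicate 2 (adjusted p = 0.022) and by DESeq2 (adjusted p = 0.0415). RPL30 and RPL17, at 0.61 ± 0.24 and 0.54 ± 0.19, were not called either, although RPL30 was called without L996 replicate 1 or 3 (adjusted p = 0.0275 and 0.0267) and RPL17 without L996 replicate 3 (adjusted p = 0.0262). RPL30 was also called with the block (adjusted p = 0.0294), and RPL17 when scaled by library size, with no filter and in the fit of all 9 libraries (adjusted p = 0.0393, 0.0266 and 0.0341).

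For each gene with a paralog, the log2 ratio of the CPM per kb of the 2 genes within a library was compared between groups. Such a ratio does not depend on the scaling of the libraries. Of 8 pairs, 6 had enough counts. With 3 libraries against 3, a two-sided exact permutation test cannot give a p below 0.1. After adjustment over the 6 pairs of a comparison, the smallest value was 0.15 in each comparison with PC3 and 0.3 in L996 against RP11.

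RPL22 gained on RPL22L1. RPL22L1 ranged from 29.2 to 43.8 CPM in PC3, from 29.6 to 40.0 CPM in L996 and from 28.9 to 31.9 CPM in RP11, so its groups overlapped in each comparison. Its log2 fold changes against PC3 were 0.05 ± 0.17 in L996 and -0.19 ± 0.14 in RP11, and neither was called (adjusted p = 0.863 and 0.392, edgeR). The log2 ratio of RPL22 to RPL22L1 was -0.20, -0.29 and -0.79 in PC3, 0.89, 0.58 and 0.60 in L996 and 0.25, 0.42 and 0.21 in RP11. The difference in means was 1.11 in L996 against PC3 and 0.72 in RP11 against PC3, and it was 0.40 in L996 against RP11, with no overlap in any of them (exact permutation p = 0.1 in each). Per kb, RPL22L1 had 14.8 CPM against 10.8 for RPL22 in PC3, and 15.3 against 24.5 in L996. The order in PC3 rests on annotated exon lengths of 2326 and 4682 bases. Without that scaling, RPL22L1 had 34.3 CPM against 50.6 for RPL22 in PC3.

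RPL26 likewise gained on RPL26L1. The log2 ratio was -1.03, -0.99 and -1.20 in PC3, -0.13, -0.15 and -0.00 in L996 and 0.08, -0.21 and 0.17 in RP11. Neither group overlapped with PC3 (exact permutation p = 0.1), whereas L996 and RP11 overlapped each other (exact permutation p = 0.5). RPL26L1 itself was called higher in L996 than in PC3, at 0.44 ± 0.13 (adjusted p = 0.0283, edgeR), but not without any 1 of the PC3 libraries (adjusted p = 0.051, 0.1 and 0.13 without replicates 1, 2 and 3) or with the gene length offset (adjusted p = 0.0602). Its log2 fold change in RP11 against PC3 was -0.01 ± 0.11.

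**Figure D5:**
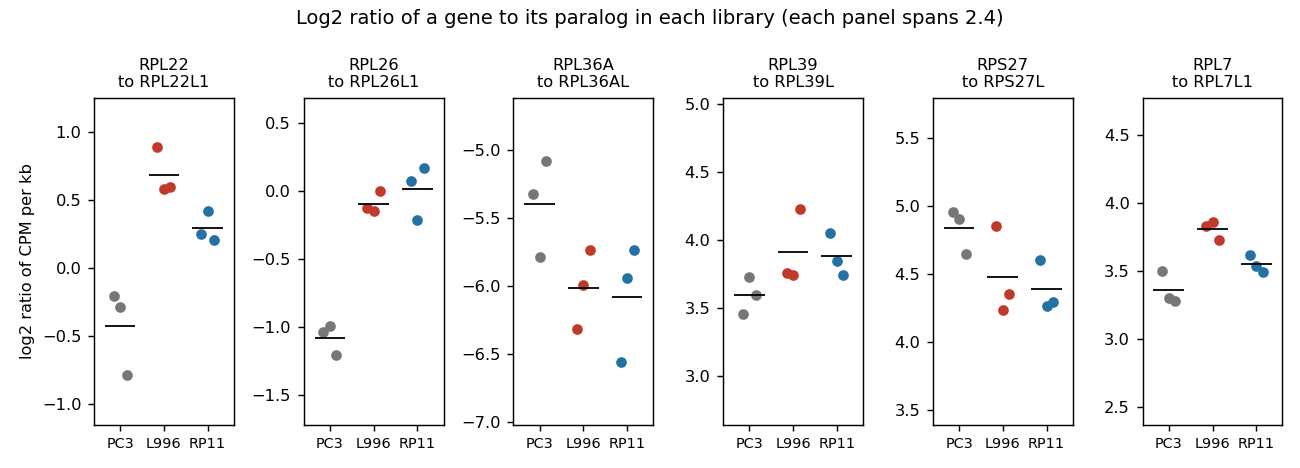
Log2 ratio of the CPM per kb of a gene to that of its paralog (vertical axes, each spanning 2.4) in each library of PC3, L996 and RP11 for 6 pairs; points are libraries and bars are means of 3. The L996 and RP11 points lie above all PC3 points for RPL22 to RPL22L1, RPL26 to RPL26L1 and RPL39 to RPL39L, and in other pairs at least 1 of the groups overlaps PC3 or lies below it.

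In the pair RPL36A and RPL36AL it was the paralog that rose. RPL36AL had 57.2, 53.5 and 46.9 CPM in PC3, 107, 86.5 and 84.3 CPM in L996 and 81.8, 79.0 and 76.5 CPM in RP11. Its log2 fold changes against PC3 were 0.82 ± 0.12 and 0.59 ± 0.07 (adjusted p = 0.000624 and 8.49e-07, edgeR), and both calls held in every other fit. RPL36A had 4.50 to 8.29 CPM over the 9 libraries and was called in no comparison. Its log2 ratio to RPL36AL lay between -6.56 and -5.08, and its groups overlapped.

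RPS27 lost on RPS27L, which p53 switches on, in RP11. The log2 ratio was 4.95, 4.91 and 4.65 in PC3 and 4.60, 4.27 and 4.30 in RP11, a difference of -0.45 with no overlap (exact permutation p = 0.1). In L996 it was 4.85, 4.24 and 4.35, which overlapped PC3. RPS27L was called higher in L996 than in PC3, at 0.39 ± 0.09 (adjusted p = 0.00804, edgeR), a call lost without PC3 replicate 2 (adjusted p = 0.074), and it had -0.01 ± 0.06 in RP11.

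RPL7L1, a nucleolar relative of RPL7 that takes part in ribosome assembly, had 86.9, 93.1 and 98.8 CPM in PC3, 98.2, 99.0 and 101 CPM in L996 and 75.6, 83.1 and 83.0 CPM in RP11. It was called lower in RP11 than in PC3, at -0.21 ± 0.06 (adjusted p = 0.0198, edgeR), but not in 6 of the 17 other fits, which were the fit of all 9 libraries, both offsets and those without PC3 replicate 2 or 3 or RP11 replicate 1 (adjusted p = 0.173, 0.0779, 0.0904, 0.0769, 0.0796 and 0.103). In L996 it was called higher than in RP11, at 0.30 ± 0.09 (adjusted p = 0.0307, edgeR), but not in 6 of the 16 other fits, which were those with no filter and without L996 replicate 2 or 3 or RP11 replicate 1, 2 or 3 (adjusted p = 0.0581, 0.1, 0.0634, 0.148, 0.0966 and 0.0982). The log2 ratio of RPL7 to RPL7L1 was higher in L996 than in PC3 by 0.45 and than in RP11 by 0.26, without overlap (exact permutation p = 0.1 in both). In RP11 it was higher than in PC3 by 0.19, and these groups overlapped (exact permutation p = 0.2). RPL39 to RPL39L, the latter known from testis and tumours, was higher by 0.32 in L996 and by 0.28 in RP11 than in PC3 (exact permutation p = 0.1 in both). RPL39L had 6.34 to 12.7 CPM over the 9 libraries and was called in no comparison with all libraries, though it was called higher in L996 than in RP11 without L996 replicate 3, at 0.66 (edgeR adjusted p = 0.0196).

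Ribosomal protein genes have many pseudogenes, to which some of their reads can be counted. The annotation holds 1144 named pseudogene copies of 77 of the 85 genes, of which 488 had a count. The copies held 3.25% of the counts of genes and copies together, but over 10% for 10 genes, led by RPS10 (81.4%), RPL9 (61.6%) and RPS28 (46.6%). RPL9P9 alone had 121 to 246 CPM per library. After adding the counts of the copies to each gene, 48 genes were called higher and 1 lower in L996 against PC3, 25 and 20 in RP11 against PC3, and 37 and 0 in L996 against RP11. The shares of all genes called higher and lower were then 10.7% and 11.7%, 11.3% and 8.59%, and 9.43% and 12.1%. RPL26 then had log2 fold changes of 1.14 in L996 and 0.79 in RP11 against PC3, both still called. Of the exon bases of RPL26, 14.3% also belong to another gene on the same strand, as do 17.6% for RPL36 and 25.6% for RPS2, and their values are uncertain to that extent.

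Genes around the ribosome were taken from lists by function. RACK1, a protein of the small subunit that bears another kind of name, was called higher in L996 than in PC3, at 0.44 ± 0.10 on the log2 scale (adjusted p = 0.00993, edgeR). FAU, which encodes a small subunit protein fused to a relative of ubiquitin, was not called, at 0.19 ± 0.16, and it was called lower in RP11 than in PC3, at -0.19 ± 0.07 (adjusted p = 0.044, edgeR). Of 15 tested translation factors and other mRNAs known for a TOP motif, 10 were called higher in L996 than in PC3 and the other 5 were not called, with a median of 0.31, beside 10.7% and 11.6% of all genes called higher and lower. The counts were 12 higher and 0 lower without L996 replicate 1, beside 15.9% and 17.3% of all genes. With RP11 against PC3, 2 were called higher and 2 lower, with a median of 0.02, beside 11.4% and 8.49% of all genes. In L996 against RP11, 9 were called higher, with a median of 0.30, beside 9.38% of all genes. Leaving out L996 replicate 1 gave 13 higher and 1 lower, beside 20.3% and 21.3% of all genes. EIF4B, which assists the helicase of translation initiation, EEF1B2, an exchange factor of elongation, and HNRNPA1, an RNA-binding protein, had log2 fold changes of 0.79, 0.78 and 0.68 in L996 against PC3, all called. Of the 10 genes of this list with a RefSeq start sequence, 9 held the pyrimidine run. EEF1G is listed at 0 counts in all 9 libraries and was not tested.

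Of 30 ribosome assembly factors, 14 were called higher in L996 than in PC3 and the other 16 were not called, beside 10.7% and 11.6% of all genes. Leaving out L996 replicate 1 gave 19 higher and 1 lower, beside 15.9% and 17.3% of all genes. Between RP11 and PC3, 8 were called higher and 3 lower in RP11, beside 11.4% and 8.49% of all genes, and in L996 against RP11, 9 were called higher, beside 9.38%, or 16 higher and 1 lower without L996 replicate 1, beside 20.3% and 21.3% of all genes. NHP2 and DKC1, which belong to the complex that makes pseudouridine in ribosomal RNA, had log2 fold changes of 1.40 and 0.53 in L996 and of 0.80 and 0.27 in RP11 against PC3, and nucleolin (NCL) had 0.45 and 0.19. All 6 of these values were called. The run was found at the start of 4 of 25 assembly factors. Of 14 genes of RNA polymerase I and its factors, which transcribe ribosomal RNA, 3 were called higher in L996 than in PC3, namely CD3EAP, POLR1E and UBTF at 1.15, 0.52 and 0.52, and 6 were without L996 replicate 1. Of 7 dedicated chaperones of ribosomal proteins, BCCIP, TSR2 and PDCD2 were called higher, at 0.43, 0.67 and 0.39, and the count was 3 without L996 replicate 1 as well. Both counts stand beside 10.7% of all genes called higher with all libraries and 15.9% without that library.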

How the data were processed

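Poly(A) RNA of 9 A549 libraries, 3 each for PC3, L996 and RP11, was sequenced. The authors deposited raw read counts per gene, made per the submitters' processing notes with HISAT2 2.0.5 and featureCounts 1.5.0-p3 on GRCh38. The notes also name DESeq2 1.20.0 and edgeR 3.22.5. The authors also deposited FPKM values (counts scaled by gene length and depth), which were used to check the counts and gene lengths and in no test. The strand setting of the counting is not given in the sources used here.

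Each comparison was fitted on its 6 libraries with edgeR 4.0.16 in R 4.3.3 (filterByExpr, TMM factors, quasi-likelihood test with robust dispersion), and p-values were adjusted by Benjamini-Hochberg over all genes tested, with a threshold of 0.05. CPM used the TMM factors of all 9 libraries, and CPM per kb divided it by exon length. Paralog ratios were log2 CPM (prior count 2) less that of the paralog, scaled by length, and were compared by a two-sided exact permutation test with scipy 1.17.1 (Python 3.11.15), adjusted over 6 pairs. The scripts were tested on simulated data. Gene positions and exons came from GENCODE 29, whose coordinates equal those of the files for all 58735 genes, and start sequences from RefSeq, GRCh38.p14, which gave 68 of the 85 genes.

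Members and lists were chosen with earlier results of these data known. Named genes are RPL22, RPL26, RPS15A, RPS23 and the paralog pairs. Per comparison they further include the 5 genes called higher and the 5 called lower with the smallest adjusted p and the 3 largest changes not called. The 5 highest and 5 lowest detected levels per kb in PC3 and 3 genes per other list, by adjusted p in L996 against PC3, complete them. Some genes that meet this rule are not reported here. Others are said to have been named after their values were seen. Alternatives were DESeq2 1.42.0, library size alone, no filter on low counts, a stricter filter (a minimum of 10 counts throughout), 1 fit over the 9 libraries, the replicate number as a block, offsets for gene length and GC content (loess, span 0.75), counts summed with pseudogene copies, mitochondrial genes left out, and each replicate left out. For paralog ratios, raw counts plus 0.5 were also used. The fit of 8 libraries without L996 replicate 1 was chosen after seeing the data.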

Additional observations from a re-analysis of the deposited data

How the results depend on the processing

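Sequencing depth was not varied, and its part in the results was not tested. RPL36A and RPL39L, at under 13 CPM, rest on fewer counts than the abundant genes, and RPL3L had too few to be tested. Counts of genes called and their medians stayed within 1.5 times or 1 SD of the reported value in 128 alternative values and moved further in 19, and of the named log2 fold changes 1197 kept their direction and call, 66 lost a call, 50 gained one and 28 reversed. In L996 against PC3, genes called lower numbered 2 without a filter and 0 with the replicate block. For RP11 against PC3, the fit of all 9 libraries called 7 higher and 1 lower, and the median was -0.028 when scaled by library size, 0.020 with the gene length offset and 0.042 with the GC content offset. Leaving out single replicates gave 31 (without PC3 replicate 2) to 55 higher and 0 to 8 lower in L996 against PC3, 10 to 20 lower and medians of -0.013 to 0.055 in RP11 against PC3, and 21 to 53 higher and 0 to 2 lower in L996 against RP11. The cause of these changes was not tested.

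Reversed log2 fold changes in L996 against PC3 with the gene length offset were -0.057 for RPS27, -0.010 for RPL22L1 and 0.023 for RPL37A, and RPL37A had 0.0014 with the GC content offset. For RP11 against PC3, the GC content offset gave 0.015 for RPL36A, 0.10 for RPL7, 0.020 for RPL26L1 and 0.078 for RPS27L, and the gene length offset gave 0.053 for RPS27L. Summed with pseudogene copies, the difference in the log2 ratio of RPL39 to RPL39L between L996 and RP11 was -0.031. With single replicates left out, values in L996 against PC3 ran from -0.38 to 0.50 for RPS23, -0.16 to 0.18 for RPS27, -0.058 to 0.26 for RPL22L1, -0.015 to 0.63 for RPL30, -0.53 to 0.040 for RPS29 and -0.32 to 0.11 for RPL37A. Those in RP11 against PC3 ran from -0.25 to 0.11 for RPL36A, -0.043 to 0.0022 for RPL7, -0.30 to 0.020 for RPL22L1, -0.089 to 0.079 for RPL26L1 and -0.044 to 0.016 for RPS27L. Those in L996 against RP11 ran from -0.17 to 0.20 for RPS15, and the differences in log2 ratio from -0.18 to 0.24 for RPL36A to RPL36AL, -0.13 to 0.12 for RPL39 to RPL39L and -0.096 to 0.21 for RPS27 to RPS27L.

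Nothing states that libraries of the same number were handled together. The deviations of same-numbered libraries from their group means correlated at -0.02 to 0.15, not above 0.1 in every pair, so the numbers were not used to pair libraries. As a hint from the data and not the design, 6 of 9 libraries correlated best with their own number. With the replicate block, 53 genes were called higher and 0 lower in L996 against PC3, 28 and 18 in RP11 against PC3, and 47 and 0 in L996 against RP11, beside 13.6% and 14.4%, 12.2% and 9.46%, and 10.3% and 13.1% of all genes.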

Other observations

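Several ribosomal proteins are known to bind MDM2 and so to touch p53, which A549 cells carry in unmutated form. Of 12 tested genes on a list of p53 and its targets, 3 were called higher and 1 lower in L996 than in PC3 (edgeR's quasi-likelihood test), beside 10.7% and 11.6% of all genes. Leaving out L996 replicate 1 gave 4 higher and 3 lower, beside 15.9% and 17.3%. TP53I3, an oxidoreductase, had a log2 fold change of 1.5 ± 0.14 (adjusted p = 2.67e-05), FAS, a death receptor, had -0.66 ± 0.13 (adjusted p = 0.004), RPS27L had 0.39 ± 0.09 (adjusted p = 0.00804) and BAX, which opens the outer mitochondrial membrane in apoptosis, had 0.69 ± 0.16 (adjusted p = 0.0083). In RP11 against PC3, 3 were called higher and 2 lower, beside 11.4% and 8.49% of all genes. There TP53I3 had 0.88 ± 0.10 (adjusted p = 4.07e-07), BAX 0.26 ± 0.07 (adjusted p = 0.0048), CDKN1A 0.27 ± 0.05 (adjusted p = 0.000467), FAS -0.22 ± 0.08 (adjusted p = 0.0476) and MDM2 -0.17 ± 0.05 (adjusted p = 0.0317). These comparisons share the control libraries. In L996 against PC3, CDKN1A and MDM2 had -0.31 and -0.31 and were not called (adjusted p = 0.0513 and 0.133).

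Genes with and without the pyrimidine run at their annotated start had medians of 0.38 and 0.36 in L996 against PC3, 0.05 and -0.01 in RP11 against PC3, and 0.34 and 0.38 in L996 against RP11, over 47 and 20 tested genes. Leaving out L996 replicate 1 gave 0.27 and 0.24 against PC3 and 0.19 and 0.31 against RP11. RPS28 and its pseudogene copy RPS28P7 went opposite ways in L996 replicate 1, which had 51.9 CPM of RPS28 and 201 CPM of the copy, while the other 2 L996 libraries had 99.0 and 91.2 CPM of RPS28 and 45.0 and 45.6 CPM of the copy.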
